A study of Mus musculus with 7 samples.

Results

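N6-methyladenosine (m6A) is added to RNA by a nuclear methyltransferase complex of which METTL3 is the catalytic subunit. It is written on long noncoding RNAs as well as on messenger RNAs, most often at the adenosine of a GGAC-type sequence, and reader proteins that bind it act on splicing, export, stability and, for some nuclear RNAs, on gene silencing. Noncoding genes often lie across from, inside or beside protein-coding genes, so the strand of a peak decides which transcript it is assigned to. The peaks described here are the m6A peaks of regenerating mouse muscle that were assigned to exons of genes other than protein-coding ones. They were 266 of the 5412 muscle peaks, or 4.92%, on 219 genes, and were chosen by their annotation alone: an exon class together with a gene biotype other than protein-coding. A further 11 peaks of noncoding genes had another class and were left out.

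The muscle libraries came from C57BL/6 mice. In the METTL3 cKO group (Pax7CreERT2; METTL3 flox/flox) the gene was deleted by tamoxifen, and the CTL group was Pax7CreERT2; METTL3 wt/wt, so that CreERT2, tamoxifen and the injury were common to both. The tibialis anterior muscle was injured with cardiotoxin (CTX), and polyadenylated RNA was taken on day 2. MeRIP-Seq compares RNA fragments pulled down by an m6A antibody (IP) with the unselected fragments (input), and there was 1 IP and 1 input library per genotype. The Pax7 promoter confines the deletion to Pax7-expressing muscle stem cells and their progeny, whereas the source was labelled as muscle and the cell type as muscle stem cell. The number of mice behind a library was not given in the sources used here. Of the marker genes examined, a peak was listed on 3 of 4 for muscle stem cells and myoblasts (Pax7, Myod1 and Myog, not Myf5), on 1 of 4 for muscle fibres (Ttn), on 2 of 4 for macrophages and leukocytes (Ptprc and Itgam), on 2 of 3 for fibroblasts (Pdgfra and Col1a1) and on 1 of 2 for endothelium (Cdh5). A listed peak shows that the transcript was enriched and that the peak passed the comparison of the genotypes described below, so these counts do not say which cell types were present, and in bulk RNA fewer cells of a type and less RNA per cell cannot be told apart.

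Each muscle peak had a single set of values and not a value per library: a position, a fold enrichment of IP over input, a peak p and the positions of its GGAC sites. From which of the IP and input libraries (cKO, CTL or both) the fold enrichment was computed was not given in the sources used here, so no fold enrichment below can be read as the level of a genotype. The list was restricted to peaks that passed the authors' comparison of the genotypes, and it held no read counts, so the depth behind a value is unknown and no test between genotypes could be made. Peaks are not replicates of a condition. Medians and shares are therefore given as descriptions, with 95% intervals that cover counting error only.

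The noncoding genes with peaks at or around promoters gave the sequences that could be shown, since RefSeq start windows (from 250 bases before to 50 bases after a transcript start, build GRCm38.p6) overlapped 23 stretches of these peaks. Of the 21 distinct GGAC sites listed within those stretches, 20 read GGAC on the strand of the noncoding gene, as did 150 of 167 distinct listed sites (89.8%) over all muscle peaks with a window. The sequences below read 5′ to 3′ on the strand of the noncoding gene, with GGAC in capitals. They are examples and show the sites opposite the start of Synm, Ptbp1, Taf3 and Ube3a, the site at the start of 4632427E13Rik itself, and the start of Malat1, which held none. Stretches not shown went both ways. The 300 bases of 4932441J04Rik opposite Pcdh7 (peak fold enrichment 408) and of D830039M14Rik opposite Lrrc20 (89.7) held no GGAC. The middle base of the 4932441J04Rik peak lay at -0.94 kb, before the RefSeq start of that gene. The 300 bases of Gm11131 opposite H2-Q4 (78.3) held 3 GGAC, although 2 sites were listed there, of which 1 read GGAC.
Gm45102, opposite Synm, chr7:67759693-67759878, plus strand: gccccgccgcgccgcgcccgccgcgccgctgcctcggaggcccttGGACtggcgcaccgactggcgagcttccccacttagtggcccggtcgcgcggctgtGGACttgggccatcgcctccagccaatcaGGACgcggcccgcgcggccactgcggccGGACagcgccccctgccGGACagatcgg
E130317F20Rik, opposite Ptbp1, chr10:79854182-79854481, minus strand: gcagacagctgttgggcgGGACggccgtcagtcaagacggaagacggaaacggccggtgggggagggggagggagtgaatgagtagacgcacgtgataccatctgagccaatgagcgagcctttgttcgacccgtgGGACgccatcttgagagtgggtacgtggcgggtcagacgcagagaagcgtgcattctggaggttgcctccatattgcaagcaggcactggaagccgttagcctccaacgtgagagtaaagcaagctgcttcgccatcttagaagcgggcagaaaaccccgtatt
C630004M23Rik, opposite Taf3, chr2:10048560-10048634, plus strand: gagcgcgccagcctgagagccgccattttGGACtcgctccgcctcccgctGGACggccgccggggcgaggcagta
9330162G02Rik, opposite Ube3a, chr7:59228764-59228799, minus strand: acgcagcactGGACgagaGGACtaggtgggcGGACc
4632427E13Rik, own start, chr7:92741410-92741468, minus strand: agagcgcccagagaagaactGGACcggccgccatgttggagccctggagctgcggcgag
Malat1, own start, chr19:5802623-5802672, minus strand: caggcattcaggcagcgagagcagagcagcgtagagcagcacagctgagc
The stretch of Gm45102 held 5 GGAC sites in 186 bases, with a GC content of 77.4%, and the whole peak had 8 sites in 562 bp at a fold enrichment of 34.8. The peak of E130317F20Rik, which lay across the start of the splicing regulator gene Ptbp1 on the other strand, had a fold enrichment of 30.9. The peaks of C630004M23Rik and 9330162G02Rik had fold enrichments of 11.1 and 36.9. GGAC is a frequent word in such windows: 65.6% of the 32817 RefSeq start windows held it on the strand of their own gene and 87.7% on either strand.

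By biotype, the 266 peaks comprised 78 on antisense RNAs, which are transcribed across another gene, 58 on lincRNAs, a class defined as lying between genes, and 48 on TEC loci, an annotation class for transcripts that still await experimental evidence. Another 44 lay on pseudogenes, which are copies of genes, 25 on processed transcripts, which lack an open reading frame, and 13 on the remaining classes (5 sense intronic, 5 bidirectional promoter, 2 misc_RNA and 1 miRNA). Most genes (190 of 219) had 1 peak, 18 had 2 and 11 had 3 or more. Of the 219 genes, 92 were found in RefSeq by symbol, where 58 were long noncoding or antisense RNAs and 25 pseudogenes. RefSeq listed 6 of them, with 11 peaks, as protein-coding: Zswim6, 9930104L06Rik, Gm1966, Gm12250, AA414768 and Gm32856. By synonym, Gm37494, with 2 peaks, was also protein-coding there, under the name Gm33989.

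The fold enrichment of the noncoding exon peaks had a median of 12.2 (95% interval 9.6 to 14.5, n = 266), with quartiles of 5.55 and 44.3 and a range from 1.21 to 1470. This was close to the median over all 5412 muscle peaks, 12.9, and to that of the 540 exon-class peaks of protein-coding genes, 13.2 (11.1 to 15.7). For coding-sequence (CDS) peaks of protein-coding genes the median was 26.7 (23.8 to 31, n = 1722), above the interval of the noncoding peaks, and 3′UTR peaks one of 9.94 (9.3 to 10.6, n = 2592). At or above 100-fold lay 33 noncoding peaks (12.4%), against 15.9% of all muscle peaks, and below 5-fold lay 64 (24.1%), against 24.9%. The noncoding peaks were also slightly shorter, with a median length of 327 bp against 360 bp. Across peaks, longer peaks had higher fold enrichment, with a Spearman rho of 0.71 among the noncoding peaks and 0.76 among all peaks. Both quantities belong to the same peak and are not independent measurements.

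Between the larger biotype groups the medians lay close together: 14.5 for pseudogenes (interval 7.95 to 33.2), 12.4 for antisense RNAs (9.6 to 22.5), 12 for processed transcripts (6.6 to 95.4), 11.9 for TEC loci (8.2 to 15.3) and 9.02 for lincRNAs (6.9 to 20.1). All of these intervals overlapped. The lincRNAs covered a wide range, with 32.8% of their peaks below 5-fold and 17.2% at or above 100-fold. The share at or above 100-fold was 28% in processed transcripts, 15.9% in pseudogenes, 6.41% in antisense RNAs and 6.25% in TEC loci.

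**Figure D1:**
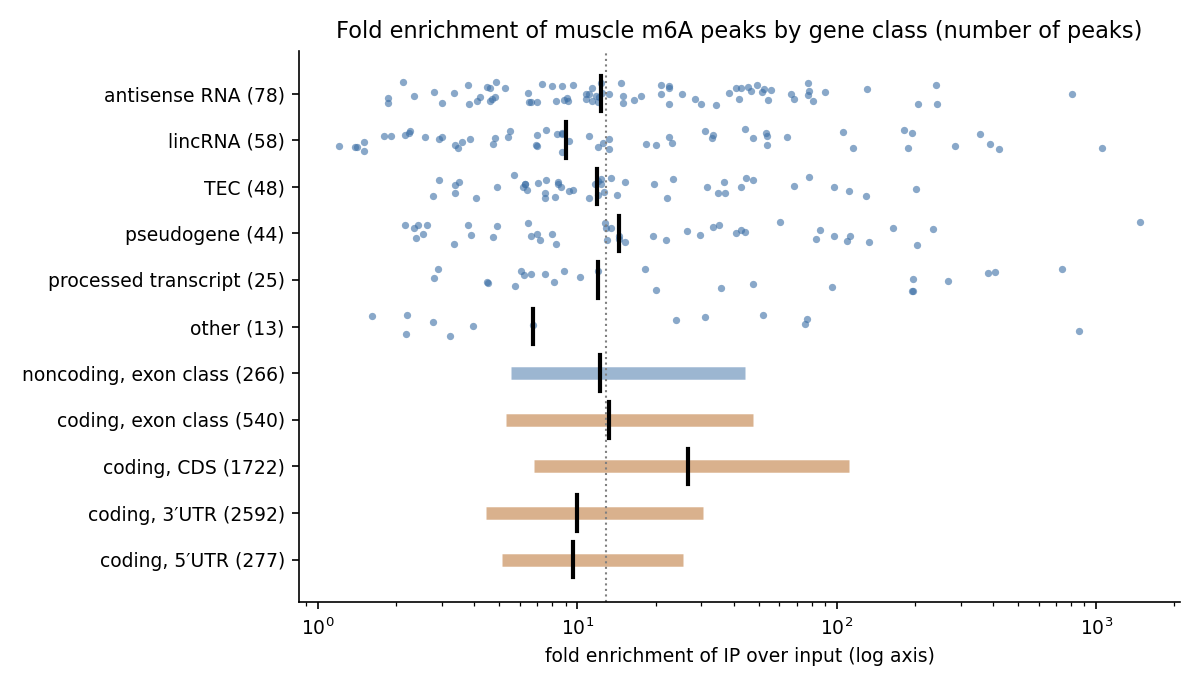
Fold enrichment of IP over input (log axis) of muscle m6A peaks. Points are single noncoding exon peaks by biotype, bars run from the lower to the upper quartile of whole classes, black ticks are medians and the dotted line is the median of all peaks. The medians of the 6 biotype groups sit between 6.75 and 14.5, and the CDS class alone has a median of 26.7.

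Within these peaks, 5 ranked among the 100 highest fold enrichments of the whole list. The highest, 1470, was on AA414768, annotated as a processed pseudogene and in RefSeq as protein-coding, and it ranked 6 of 5412. Next was 2900097C17Rik, which RefSeq names Norad, a cytoplasmic long noncoding RNA that binds Pumilio proteins, with 1050. Peg13, an imprinted RNA transcribed from within Trappc9, had 857, and Tug1, a long noncoding RNA described with Polycomb regulation, had 807. Gm20412, on the strand opposite the transglutaminase gene Tgm2, had 738. These were followed by Gm42047 (421), 4932441J04Rik (408), Gm26883 (390), Zswim6 (381) and A130077B15Rik (357).

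At the low end, Malat1, an abundant RNA of nuclear speckles, had the lowest fold enrichment of all 266, 1.21, in a 181-bp peak at its start. A peak of 1700020I14Rik, which RefSeq names Oip5os1 (Cyrano), had 1.39. The predicted lincRNA Gm26917 had 3 peaks at 1.42, 1.5 and 1.5, of which the last 2 overlapped over 241 bp. None of these 5 lowest peaks exceeded an enrichment of 1.5 over input.

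The RNAs of X inactivation are a transcript that coats and silences the inactive X chromosome, Xist, and its antisense repressor, Tsix. Xist had 5 peaks. The peak with the largest fold enrichment, 195, joined 2 exon blocks, at 72.5% to 73.7% and at 98.5% to 99.7% of the RefSeq span from the 5′ end, and shared 289 bp with a peak of 53.9. A peak at 31.1 lay just upstream of these, around 15.7 kb from the start. Near the 5′ end of Xist, the part that carries the A-repeat needed for silencing, a 1109-bp peak centred 0.81 kb from the start (chrX:103481869-103482977) had a fold enrichment of 64.5 and 7 GGAC sites. The fifth peak, at 7.95 kb, was weak at 2.16 and had no GGAC. The other Xist peaks thus lay near the 5′ end and from 63% of the span onwards, with the weak one in between. Tsix had 1 peak, of 66.8, on the other strand of the Xist 5′ peak. Ftx and Jpx, the other X-inactivation RNAs examined, had no listed peak.

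Among nuclear RNAs, Neat1, the scaffold of paraspeckles, had the most peaks of any noncoding gene, 6, and all were modest, between 3.46 and 11.1. Of these, 2 were near-copies 1.57 and 1.56 kb from the start, with fold enrichments of 8.73 and 8.71 and 4 GGAC sites each, and Gm28006, annotated as a misc_RNA and lying inside Neat1, had 1.61. The highest, 11.1, lay in the middle of the 20773-bp gene and had no GGAC. The main Malat1 peak had 6.99 and 4 GGAC sites, 1.05 kb from the start. Kcnq1ot1, an imprinted antisense RNA that silences its neighbours, differed from both with 2 peaks of 54.3 and 68.4, at 54.21 and 37.73 kb from its start. Miat and Firre had no listed peak.

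Besides Kcnq1ot1, 8 imprinted noncoding RNAs were examined, and 4 of them had a peak. Peg13 had a peak of 3111 bp over the middle of its 4723-bp span, the second longest of a noncoding gene, with 9 GGAC sites. Airn, the antisense silencer of Igf2r, had 22.5 at 88.68 kb from its start. Meg3 had 5.5 and H19, which is induced in regenerating muscle and hosts a microRNA, had 3.87 and 1.92 in its 3′ part. None of the Airn, Meg3 and H19 peaks held a GGAC site. Rian, Mirg, Nespas and Snhg14 had no listed peak.

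Of 8 names in the list of microRNA hosts, which also held the p53-induced RNA Lncpint, Dnm3os and Dleu2 had peaks of this class and 6 had none. Outside that list, 2610203C20Rik, which RefSeq names Mir100hg, a further microRNA host, had fold enrichments of 35.7 and 10.2; it was named after its values were seen. Dnm3os had 4, in pairs of near-copies shifted by a base, with fold enrichments of 6.6 and 9.6 at 3.33 and 3.34 kb and of 4.61 for both others. Dleu2 had 12 and 2.81. In none of the Dnm3os and Dleu2 peaks was a GGAC site listed. Of the other named long noncoding RNAs with peaks, Gm26917 had the 3 weak peaks given above, and 3 were uneven along their length: Norad had 1050 at 0.51 kb and 2.25 at 3.42 kb, Tug1 807 at 1.98 kb and 34.3 at 3.58 kb, and Oip5os1 22.6 and 1.39. Some RNAs entered the lists of known noncoding RNAs under both an older and a newer name, with the peaks under the older one, as for 2900097C17Rik (Norad) and 1700020I14Rik (Oip5os1). Ptprv, also listed, is a receptor-type phosphatase gene. Of the 67 names in the lists, which are thus not 67 separate RNAs, 15 had a peak of this class, 36 peaks in all. None of 16 small nucleolar RNA host genes and none of the 10 names searched for muscle long noncoding RNAs and micropeptides, some of which are older and newer names of the same gene, did. Under the name 1500011K16Rik, a micropeptide gene, 1 peak of another class was listed. For a list restricted to peaks that passed a comparison, the lack of a peak says nothing about whether an RNA was methylated.

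**Figure D2:**
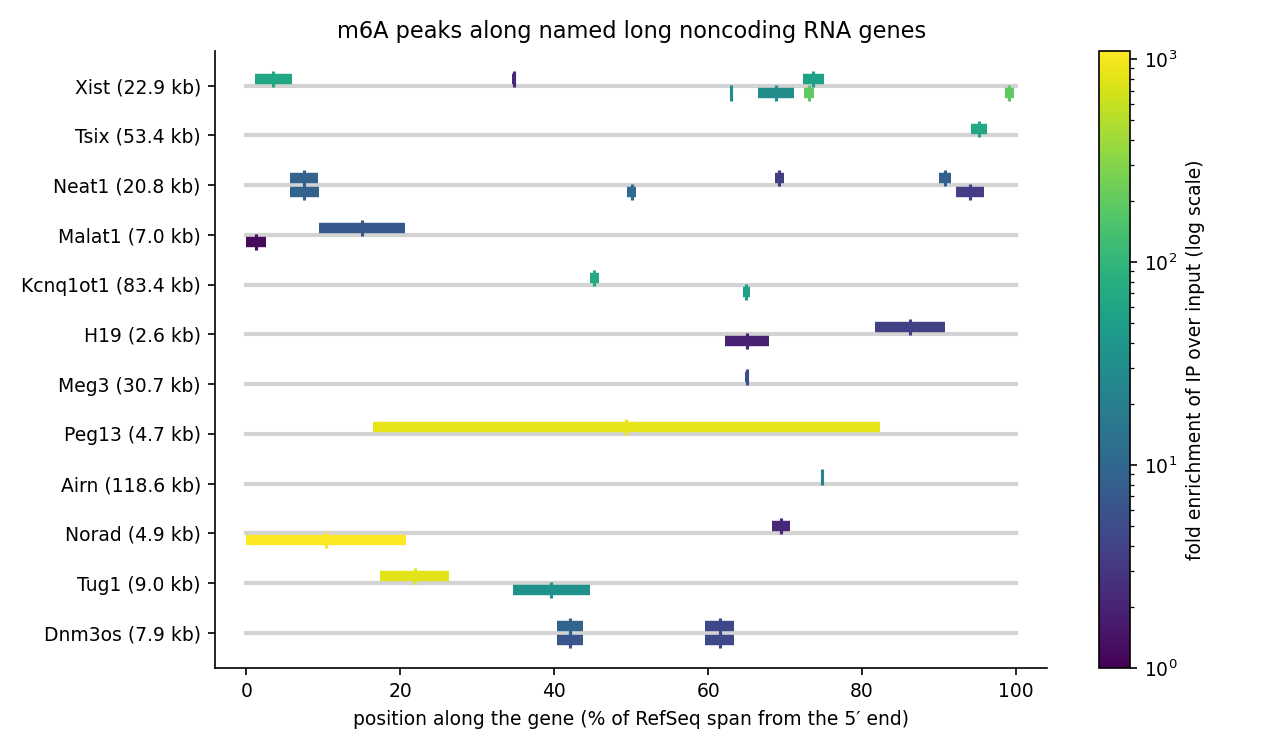
Peaks along 12 named noncoding genes, as percent of the RefSeq span from the 5′ end (introns included, gene length in kb in brackets), with each exon block to scale and colour for fold enrichment on a log scale; blocks are offset vertically so that overlapping peaks can be seen. Norad, Peg13 and Tug1 hold the 3 strongest, 807 to 1050, while the 6 Neat1 peaks stay between 3.46 and 11.1.

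Several other genes held 3 or more peaks. The pseudogene-annotated pair Gm8995 and Gm1966, which lie close together on chromosome 7, had 3 and 4 peaks. Gm8995 included the longest noncoding peak, 4314 bp long and 204-fold enriched, in which 15 GGAC sites were listed, and, next to it, 2 peaks of 2327 and 2308 bp with 44.3 and 40.7 that were near-copies of each other. Gm1966 had 112, 35, 33.2 and 15.3, the strongest with 9 GGAC sites. Reads of pseudogenes may have been split or shared between a copy and its parent gene, so these values are uncertain. Zswim6 had 381 at 163.2 kb from the start, at 98.6% of its span, with 10 GGAC sites, and 5.75 and 4.5 elsewhere. 4632427E13Rik, transcribed from a bidirectional promoter, had 76.7 and 75.6 in 2 near-copies that spanned the whole RefSeq gene, with 7 GGAC sites each, and 2.78 in a peak outside it. The TEC locus 9330162G02Rik opposite Ube3a, the ubiquitin ligase gene of an imprinted domain, had 36.9, 12 and 3.37. Gm10602 had 7, 6.5 and 1.86, and Gm26899, opposite Zfp106, had 4.83, 4.73 and 2.27. Among single peaks, the 4314-bp peak of Gm8995 was followed in number of GGAC sites by that of BC037039, an antisense RNA opposite the protocadherin gene Pcdhgc3, with 11 sites and a fold enrichment of 49.1. In all, 9 pairs of peaks within a gene overlapped on the same strand, so the number of peaks slightly exceeds the number of separate regions. In 3 further cases the overlap was with another gene on the same strand: Gm27517 inside the weaker Tug1 peak, with 3.95 against 34.3 over 236 bp, Gm20427 with Slc39a7 (4.51 and 4.5) and Gm43055 with Ythdc1 (1.8 and 1.51).

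GGAC sites were less frequent in the noncoding peaks. At least 1 site was listed in 156 of 266 (58.6%, Wilson interval 52.6 to 64.4), against 70.6% of all muscle peaks (69.4 to 71.8), 75% of the coding exon-class peaks (71.2 to 78.5), 84.6% of CDS peaks (82.8 to 86.2) and 62% of 3′UTR peaks (60.1 to 63.8). The density was 3.39 sites per 1000 bp in the noncoding peaks (exact Poisson interval 3.08 to 3.72), 4.63 over all peaks and 5.03 in coding exon-class peaks (4.78 to 5.3). It was also below that of 3′UTR peaks, 4.12 (4.0 to 4.24), whose share of peaks with a site overlapped that of the noncoding peaks. By biotype the share ran from 35.4% in TEC loci (23.4 to 49.6, n = 48) and 48.3% in lincRNAs (35.9 to 60.8, n = 58) to 65.4% in antisense RNAs (54.3 to 75, n = 78) and 77.3% in pseudogenes (63 to 87.2, n = 44), and it was 84.6% in the 13 peaks of the remaining classes (57.8 to 95.7). The density was lowest in lincRNAs, 2.49 sites per 1000 bp (1.97 to 3.12), and TEC loci, 2.70 (1.93 to 3.68).

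**Figure D3:**
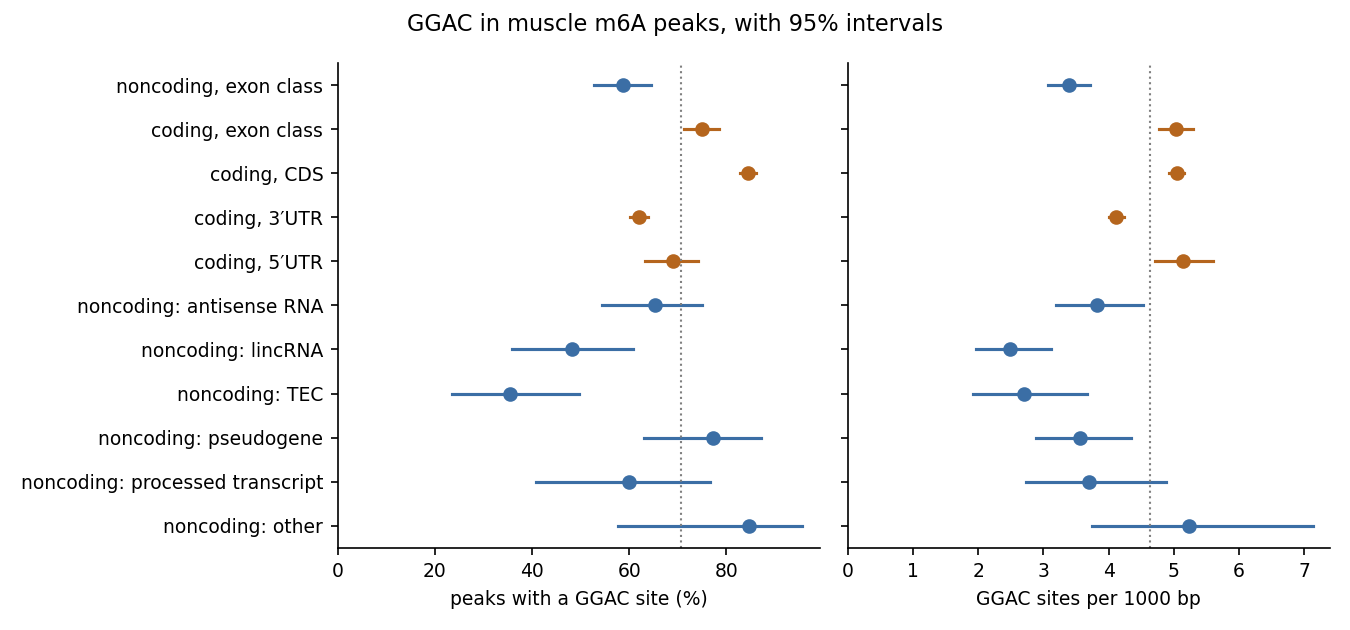
Left, percent of peaks with at least 1 GGAC site, with 95% Wilson intervals; right, GGAC sites per 1000 bp of peak, with exact 95% Poisson intervals. Blue is noncoding, orange coding, and the dotted line is all muscle peaks; the noncoding exon class lies at 58.6% and 3.39 sites, below the coding exon class at 75% and 5.03.

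A longer peak has more room for a 4-base word, so the shares were compared within length classes of all muscle peaks. In peaks of 111 to 211 bp, 34.8% of the noncoding (24.6 to 46.6, n = 69) and 49.7% of the coding exon-class peaks (41.7 to 57.6, n = 149) held a site. From 231 to 360 bp the shares were 42.9% (32.8 to 53.5, n = 84) and 65.4% (56.7 to 73.1, n = 127), and these intervals did not overlap. From 361 to 690 bp they were 83.3% (72 to 90.7, n = 60) and 90% (84.2 to 93.8, n = 150). Above that they were 86.8% (75.2 to 93.5, n = 53) and 99.1% (95.2 to 99.8, n = 114), again without overlap. The noncoding share was the lower of the pair in all 4 length classes. Against the peaks of all protein-coding classes together, which held a site in 38.6%, 62.7%, 86.7% and 97.5% from the shortest to the longest class, the gap was small at 111 to 211 bp and at 361 to 690 bp, where the coding share lay inside the noncoding interval. Of the 33 noncoding peaks at or above 100-fold, 6 had no GGAC: Gm42047 (421), A130077B15Rik (357), BC002059 (286), Gm30329 (243), 2610306O10Rik (129) and B230354K17Rik (115). Among the 92 coding exon-class peaks of that strength, 2 had none. The 6 names were chosen after their values were seen.

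**Figure D4:**
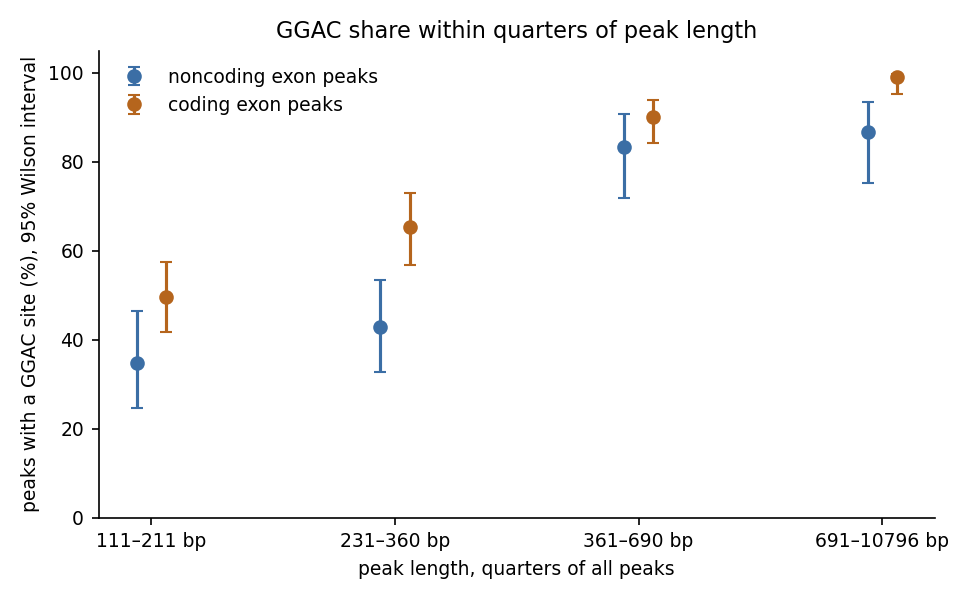
Percent of peaks with at least 1 GGAC site (95% Wilson intervals) in 4 classes of peak length, for noncoding exon peaks (blue) and exon-class peaks of protein-coding genes (orange). Both climb with length, and the noncoding share is below the coding share in each class, 42.9% against 65.4% at 231 to 360 bp.

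In all, 54 of the 266 noncoding peaks (20.3%, interval 15.9 to 25.5), on 50 genes, overlapped a listed peak on the opposite strand, against 196 of 5412 muscle peaks (3.62%, 3.16 to 4.15) and 17 of 540 coding exon-class peaks (3.15%, 1.97 to 4.98). The 196 include the 54 noncoding peaks and their partners, and the antisense biotype itself means transcription across another gene. These 54 included 20 antisense, 18 lincRNA, 8 TEC, 6 processed transcript and 2 pseudogene peaks, which is 31% of the lincRNA and 25.6% of the antisense peaks. They formed 53 pairs, 51 of them with a protein-coding gene (46 genes) and 2 between noncoding genes, Tsix with Xist and 5830417I10Rik with 1500004A13Rik. The partner was a CDS peak in 19 pairs, a 3′UTR peak in 19, a 5′UTR peak in 9 and an exon-class peak in 6. In 51 pairs at least 90% of the shorter peak was shared, and in 29 both ends lay within 50 bp.

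The fold enrichments of the 2 strands were alike. In 35 of the 53 pairs (66%) they differed by no more than 1.5 times, and the median ratio of the higher to the lower was 1.16. In 4 pairs they were equal to the last digit given, and across pairs their Spearman rho was 0.85. Neither strand was regularly the stronger, with 23 pairs higher on the noncoding gene and 26 on the partner. The kit keeps the strand of a read, but whether the peaks were drawn from reads split by strand was not given in the sources used here, so reads of an overlapping pair cannot be told apart from these values.

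Among the strongest pairs, Gm26883 had 390 and the CDS of Tshz2, a zinc-finger transcription factor gene, 386, over exactly the same 1018 bp (chr2:169885961-169886978). 4932441J04Rik and the CDS of the protocadherin gene Pcdh7 both had 408. Gm10143 had 195 against 196 for Fen1, the flap endonuclease of DNA replication and repair. Gm26786 had 106 against 111 for Zfp90. Gm13066 had 77.1 against 82 for Ctnnbip1, an inhibitor of beta-catenin. In these 5 pairs the strands differed by at most 1.06 times.

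In other pairs the strands differed somewhat more. Gm43909 had 202 and Bhlhe41, a transcriptional repressor of the circadian clock, 138. 1700034P13Rik had 131 and Vcpip1, a deubiquitinase gene, 218. Gm26596 had 97.2 against 59 for Atxn7l3b, and Gm37206 had 111 against 102 and 98.6 for 2 overlapping peaks of the RNA-binding protein gene Rbm4b. Gm20412, spread over 2 exon blocks, had 738 and Tgm2 229, a ratio of 3.22 in favour of the noncoding strand. A ratio above 3 was seen in 7 pairs, and the widest was AC148328.2, where a 146-bp peak of 3.5 lay inside a Rnf26 CDS peak of 539.

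**Figure D5:**
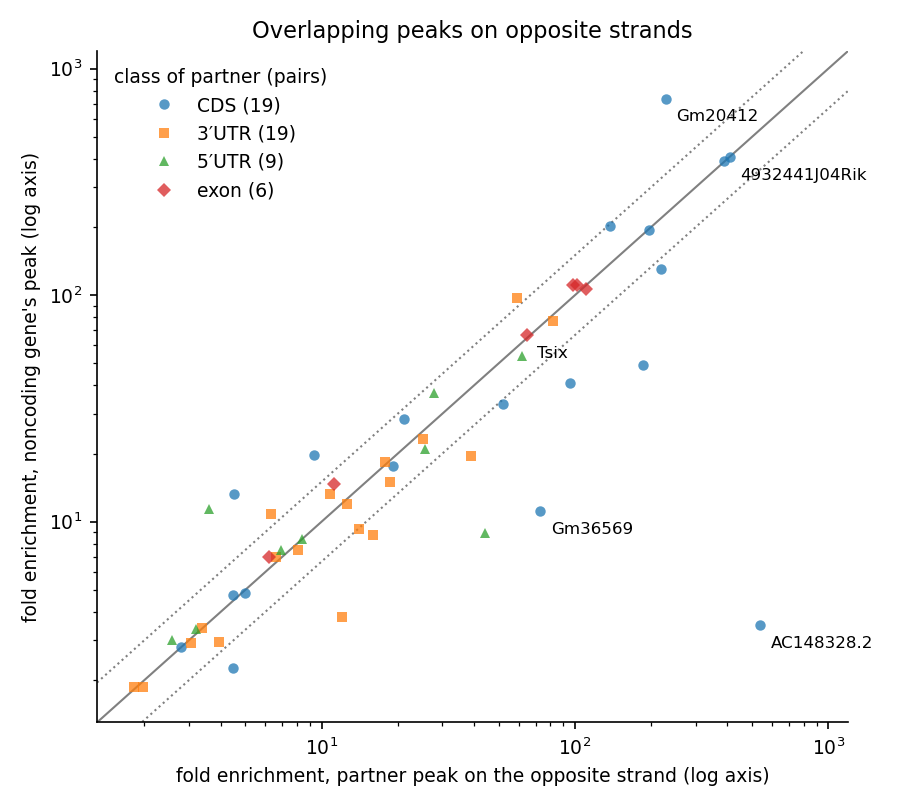
Fold enrichment of the noncoding gene's peak against that of its overlapping partner on the opposite strand (log axes, 53 pairs, shape and colour for the partner's class). The solid line marks equal values and the dotted lines a 1.5-fold difference, within which 35 pairs lie; Gm20412, Gm36569 and AC148328.2 lie outside.

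The GGAC sites of the overlaps were counted on each strand. Over the 26.1 kb shared with protein-coding partners, 147 GGAC sites were listed on the coding strand, 5.62 per 1000 bp (exact Poisson interval 4.75 to 6.61), and 92 on the noncoding strand, 3.52 per 1000 bp (2.84 to 4.32). The overlap of Gm37206 with both Rbm4b peaks enters these sums more than once, and with each base counted once there were 145 and 90 sites in 25.5 kb. In 24 of the 51 pairs the coding strand had more sites, in 13 the noncoding strand and in 14 neither. In the overlap with Pcdh7 the coding strand had 16 sites and 4932441J04Rik 3, and in that with Tshz2 the counts were 10 and 3. For Vcpip1 and 1700034P13Rik they were 7 and 1, and for Zfp36l1 and Gm26669, with fold enrichments of 8.09 and 7.54, 5 and 0. The order was turned for Gm20412, with 3 sites against 1 for Tgm2, and for Gm20033, with 3 against 1 for Klf3. Of the 54 overlapping peaks, 70.4% held GGAC (57.2 to 80.9), close to the 70.6% of all muscle peaks, and their median fold enrichment was 13.2. The remaining 212 noncoding peaks had a share of 55.7% (48.9 to 62.2) and a median of 12.1. The intervals of both shares overlapped.

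Many of the remaining peaks also lay within protein-coding genes. Of all 266 peaks, 101 (38%) fell inside the RefSeq span of a protein-coding gene on the opposite strand, 46 (17.3%) inside one on the same strand and 92 (34.6%) in no such span, a few lying in spans on both strands. A further 30 lay within spans whose strand was not in the tables used here. Antisense RNA peaks were mostly of the first kind, 57 of 78 (73.1%), whereas 34 of 58 lincRNA peaks (58.6%) and 27 of 44 pseudogene peaks (61.4%) lay outside. TEC peaks stood apart, with 26 of 48 (54.2%) inside a protein-coding gene on its own strand, where reads of the gene's own transcript cannot be told apart from those of the TEC locus. Examples are 2610306O10Rik in Bag3, a chaperone gene of muscle, with 129, Gm37123 in Pik3ca, a kinase subunit gene, with 68.1, Gm37902 in Cul3, a ubiquitin ligase scaffold gene, with 42.6, and Gm44667 in Mef2a, a muscle transcription factor gene, with 12.3. These 4 examples were chosen after their values were seen. Start windows of a protein-coding gene on the opposite strand were touched by 19 peaks (7.14%), among them Gm45102, E130317F20Rik, C630004M23Rik and 9330162G02Rik.

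C2C12 is a mouse myoblast line, whose m6A list came from 2 IP and 1 input libraries and named 3970 genes; the labels give the IP libraries a knockout genotype and the input a normal one. By symbol, 15 of the 219 noncoding genes with a muscle peak (6.85%) were also in it. The C2C12 list uses RefSeq accessions, and of the 96 noncoding genes found in RefSeq by symbol or synonym these 15 were 15.6%. Of the 3751 protein-coding muscle genes 41.1% were in it. Of the 140 C2C12 genes with a noncoding RefSeq accession, 13 (9.29%) were among the 15, and the other two shared genes, AA414768 and Zswim6, had a coding accession there. The shared genes were H19, Malat1, Neat1, Tsix, Tug1, Norad, Oip5os1, AA414768, Zswim6, Gm6548, 1700052K11Rik, 4932441J04Rik, 4933431E20Rik, 5830417I10Rik and A730017L22Rik. Their highest muscle fold enrichments had a median of 66.8, against 12.9 for the other noncoding genes. These other genes include those not found in RefSeq, so the 2 medians also differ in annotation. The annotations behind the 2 lists differ, and a predicted gene missing from one of them could not match.

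Positions within the shared RNAs could be set side by side as distances from the transcript start. Of 14 shared genes with a position in both lists, 10 had a C2C12 and a muscle peak within 0.5 kb of each other. A gene with several peaks counted if any 1 pair matched. AA414768, Gm6548, 1700052K11Rik and H19, all among the 10, have RefSeq spans of only 1669 to 2617 bp. The number of matches to be expected by chance was not computed. The distances in C2C12 and muscle were 1.55 and 1.56 kb for Neat1, 1.92 and 1.98 kb for Tug1, 0.61 and 0.51 kb for Norad, 1.29 and 1.05 kb for Malat1, and 50.8 and 50.88 kb for Tsix. C2C12 also had a Tug1 peak at 7.51 kb and Tsix peaks at 29.1, 34.9 and 42.4 kb, which had no muscle peak of the same gene within 0.5 kb. Only peaks under the same symbol were compared. Tsix runs across Xist on the other strand, and whether these C2C12 Tsix peaks lie on muscle peaks of Xist was not examined. In H19 both lists had a pair of peaks, at 1.36 and 2.07 kb in C2C12 and at 1.7 and 2.26 kb in muscle. The C2C12 peak of 4932441J04Rik, in contrast, lay 26.1 kb into the gene, away from the muscle peak opposite Pcdh7. The middle base of that muscle peak lay at -0.94 kb, before the RefSeq start of the gene. The C2C12 list gave no fold enrichment, so the strength of these peaks could not be compared.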

How the data were processed

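The members, gene lists and comparisons were chosen with earlier results of these data known. Per the labels and the study's methods, RNA fragments were immunoprecipitated with an m6A antibody and sequenced with a stranded kit on an Illumina instrument, and the submitters' processing notes name TopHat, MACS2 and the build mm10, with versions not given in the sources used here. The authors deposited 1 muscle list with, per peak, a fold enrichment (a ratio of IP over input), a p-value, exon blocks, a class, a biotype and GGAC positions, and 1 C2C12 list of positions and distances. Columns of the authors' comparison between genotypes hold their fold changes and p-values, and these columns were not used. The log-scale peak p and FDR columns hold damaged cells and were not used either. The deposited values carry no counts, so depth is unknown.

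Members were the rows with class exon and a biotype other than protein_coding. Overlap was searched between exon blocks with a minimum of 1 bp, and peaks overlapping an opposite-strand peak were marked. A peak's position in its gene was that of the middle base of its blocks within the RefSeq GRCm38.p6 span. Intervals were 95% Wilson (shares), exact Poisson (densities) and order-statistic binomial (medians). Of 21900 protein-coding RefSeq genes, 17492 had a strand. The C2C12 list uses positions of a different build, so only its symbols and distances were compared. Named genes were those of the lists of known noncoding RNAs, the 10 highest and 5 lowest fold enrichments, the 5 longest peaks, the 5 with most GGAC sites, genes with 3 or more peaks and the 10 strongest opposite-strand pairs; genes outside this rule were named after their values were seen. Alternatives left out overlapping peaks, took 1 peak per gene, 1 exon block or the stronger peaks, or changed the biotypes or the overlap rule. Overlap search and intervals were tested on simulated data. Python 3.11.15, pandas 2.3.3, numpy 2.4.6, scipy 1.17.1 and matplotlib 3.10.9 were used.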

Additional observations from a re-analysis of the deposited data

How the results depend on the processing

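The median fold enrichment of 12.2 stayed within its interval without opposite-strand overlaps, with 1 peak per gene, with single-block peaks, without pseudogenes and TEC loci, and with 1 of each set of overlapping peaks of a gene. With peaks at or below the median p of all peaks it was 47.6. The GGAC share of 58.6% stayed within its interval under the same settings, and became 76.1% for peaks at or below the median p and 72.2% where the fold enrichment reached the median over all peaks. In the 4 length classes, added after seeing the data, it was 34.8%, 42.9%, 83.3% and 86.8%. GGAC sites per 1000 bp stayed between 3.28 and 3.58 under every alternative run. The number of peaks was 277 with any class, 255 without genes that RefSeq lists as protein-coding by symbol, 253 with synonyms included (both added after seeing the data), and 174 without pseudogenes and TEC loci. Overlaps with an opposite-strand peak numbered 54 when 0.5 of the shorter peak had to be shared or whole spans were used, and 50 with protein-coding partners only. Of the 15 genes shared with C2C12, 15 were found with synonyms added and 12 without genes in an opposite-strand overlap. With 1 value per peak and no value per library, no replicate could be left out and no paired analysis was possible because the columns carry no replicate.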
